A study of Homo sapiens with 20 samples.

Results

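HAND2-AS1, NBAT1, CASC15 and GATA3-AS1 are 4 long non-coding RNAs (lncRNAs) transcribed from loci of the sympathetic neuron lineage, the lineage from which the childhood tumour neuroblastoma arises. They were found by their gene names in the GENCODE annotation, and are 4 of the 57536 genes with a measured transcript, 14876 of which are lncRNAs. Levels were measured by RNA-seq of poly(A) RNA from NGP cells, an established human neuroblastoma line with intact p53. In the vehicle group (n = 10) the cells received ethanol alone. In the nutlin group (n = 10) they received a racemic mixture of nutlin-3 at 8 µM, a small molecule that keeps MDM2 from binding p53. All 20 samples come from a single cell line, so a p-value measures the spread between cultures of that line. The duration of the treatment was not given in the sources used here. The comparison asks how the level of each lncRNA differs between nutlin and vehicle samples.

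In sympathetic neuroblasts a set of transcription factors, among them HAND2 and GATA3, holds cells in the adrenergic state and switches on the genes of noradrenaline synthesis. Each of the 4 lncRNAs lies beside such a gene or on a known risk locus. HAND2-AS1 and GATA3-AS1 are transcribed away from HAND2 and GATA3 on the opposite strand. NBAT1 and CASC15 overlap on opposite strands of 6p22, a locus of inherited neuroblastoma risk, and both have been described as RNAs that restrain growth of neuroblastoma cells. The protein-coding gene on the near side of that locus, SOX4, encodes a transcription factor of neural progenitors.

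A pair of p53 targets served as the check of the treatment. MDM2, the p53 target that encodes the E3 ligase bound by nutlin-3, had a mean of 245 CPM (counts per 1000000) in vehicle and 5564 CPM in nutlin samples. CDKN1A, the p53 target that encodes the cell cycle inhibitor p21, had means of 32.8 and 1679 CPM. The estimated counts summed to between 14455477 and 19532971 per vehicle sample and to between 15078052 and 17442896 per nutlin sample. Summed TPM (transcripts per 1000000, a level per transcript length) of the 6 adrenergic markers lay between 2404 and 2795 in vehicle and between 3034 and 3913 in nutlin samples, and all 6 markers were above 1 TPM. Of these markers 3 were called as higher and 2 as lower, so the sum does not stand for each of them. The 6 mesenchymal markers summed to between 164 and 197 TPM in vehicle and between 115 and 145 TPM in nutlin samples. TWIST1 was the most abundant of them. Yet 4 were called as higher and 1 as lower, with a median log2 fold change of 1.83. The lower sum therefore does not stand for each of these markers either. Of all genes tested 32.3% were called as higher and 26.5% as lower. The 5 Schwann cell markers summed to at most 4.29 TPM, the 3 endothelial markers to at most 1.2 TPM and the 3 leukocyte markers to at most 0.809 TPM, with CD3E at 0 in every sample.

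All 4 lncRNAs were higher in nutlin than in vehicle samples. The log2 fold change (LFC) was 2.24 ± 0.11 (SE) for NBAT1, 1.16 ± 0.048 for CASC15, 0.55 ± 0.048 for GATA3-AS1 and 0.37 ± 0.039 for HAND2-AS1. All 4 were called at 5% FDR by the edgeR quasi-likelihood test, with adjusted p-values of 2.6e-17, 7.1e-19, 2.0e-11 and 1.2e-09 in that order. Calls were frequent in this comparison. Of all 27697 genes tested 58.8% were called, 32.3% as higher and 26.5% as lower in nutlin samples. These genes include some with a total of only 1 count in each condition. The shares are therefore not matched to the level of the genes listed below. Of the 2371 lncRNAs with a mean of at least 1 CPM 53.6% were called as higher, and 25.3% had nutlin samples that all lay above the vehicle samples. The LFC of NBAT1 exceeded that of 95.1% of all genes tested, against 83.0% for CASC15, 66.0% for GATA3-AS1 and 58.2% for HAND2-AS1. In a bulk sample, more RNA per cell and a larger share of cells that make the RNA cannot be told apart.

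**Figure D1:**
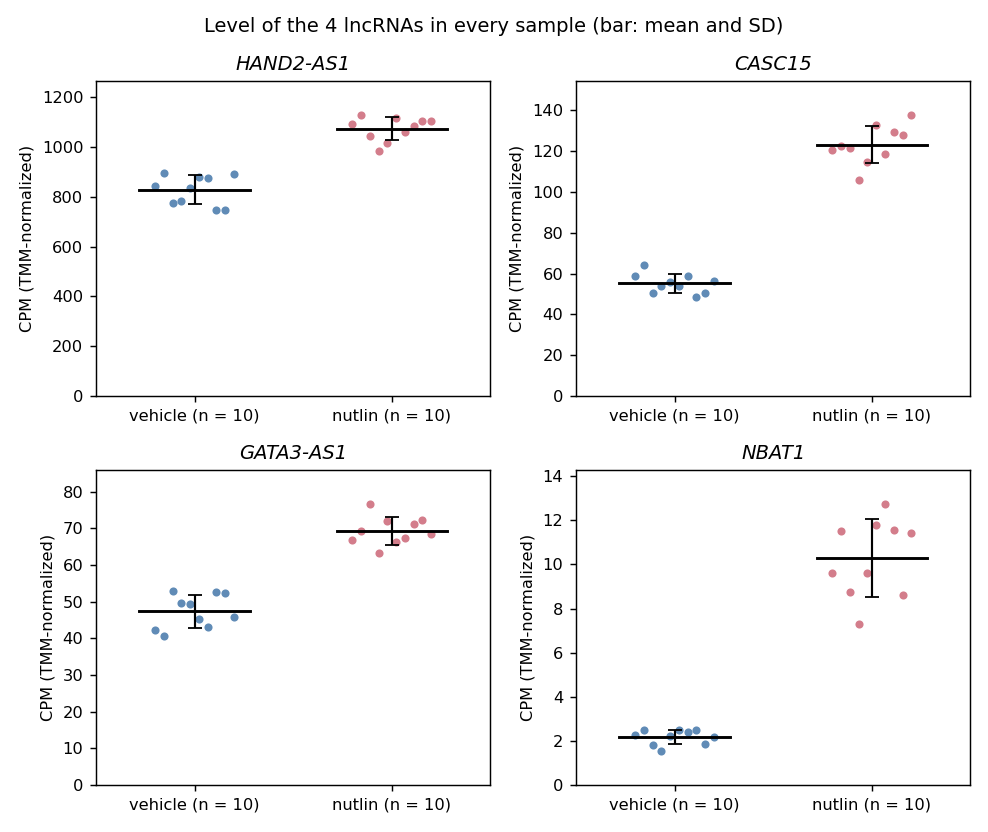
Level of HAND2-AS1, CASC15, GATA3-AS1 and NBAT1 in CPM (TMM-normalized) in every vehicle (n = 10) and nutlin (n = 10) sample. Each point is a sample, the wide bar is the mean and the error bar the SD. In each panel the lowest nutlin sample lies above the highest vehicle sample, for NBAT1 at 7.32 against 2.49 CPM and for HAND2-AS1 at 983 against 897 CPM.

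Per transcript length the 4 lncRNAs span a wide range of levels. The mean level in vehicle samples was 494 TPM for HAND2-AS1, 34.9 TPM for GATA3-AS1, 14.1 TPM for CASC15 and 1.27 TPM for NBAT1. The sample ranges of these 4 levels did not overlap, so the order was the same in every vehicle sample. HAND2-AS1 ranked 4 among the 10346 lncRNAs tested by this level, GATA3-AS1 ranked 98, CASC15 273 and NBAT1 2261. In nutlin samples the order was unchanged, at means of 715, 55.0, 31.7 and 5.93 TPM. The spread between samples was smallest where the counts were high. The coefficient of variation of CPM was 7.11% in vehicle and 4.38% in nutlin samples for HAND2-AS1, and 15.3% and 17.0% for NBAT1, which had a mean of only 33.1 counts per vehicle sample.

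HAND2-AS1 (ENSG00000237125, GRCh38 chr4:173527270-173659696, plus strand) is the antisense partner of HAND2, the basic helix-loop-helix factor of sympathetic and cardiac development. Its level ranged from 748 to 897 CPM in vehicle samples, with a median of 840 CPM. In nutlin samples it ranged from 983 to 1129 CPM, with a median of 1088 CPM. The groups did not overlap, as for 12.2% of all genes tested with nutlin samples the higher group, yet the fold change of 1.30 (95% confidence interval 1.23 to 1.37) was the smallest of the 4. The leading transcript of HAND2-AS1 starts 229 bases from the start of the leading HAND2 transcript, and the pair is transcribed apart. Of the 37 measured HAND2-AS1 transcripts 32 start within 300 bases of that HAND2 start. They held 90.5% ± 0.70 (SD) of the HAND2-AS1 counts in vehicle and 91.6% ± 0.34 in nutlin samples.

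Most HAND2-AS1 counts thus belonged to forms that start in the promoter region of HAND2. The 300-base promoter windows of both genes in RefSeq (250 bases before to 50 after the start, GRCh38) share 272 bases, chr4:173530208-173530479. The HAND2-AS1 window is chr4:173530208-173530507 on the plus strand, and is shown because the lncRNA and HAND2 share it. Capitals mark GATA motifs on either strand, here AGATA or TGATA with a further A or G.
HAND2-AS1: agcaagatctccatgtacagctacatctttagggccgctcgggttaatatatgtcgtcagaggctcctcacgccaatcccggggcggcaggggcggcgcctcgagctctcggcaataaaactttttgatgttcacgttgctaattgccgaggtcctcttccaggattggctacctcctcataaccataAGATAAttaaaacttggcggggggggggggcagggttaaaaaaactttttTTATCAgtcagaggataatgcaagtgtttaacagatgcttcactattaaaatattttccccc
The window holds 2 GATA motifs, which begin 62 and 12 bases before the lncRNA's start and lie in the shared stretch. A GATA motif occurs in 25.0% of all 35116 windows of this length, so the match is a description and not evidence of binding. It holds 2 E-boxes (CANNTG, in 68.7% of windows), both just after the start, and none of them reads CACGTG, a form found in 7.26% of windows. It holds no homeodomain core (TAAT, then 3 bases and its reverse complement, in 0.365% of windows), no CHR element of cell cycle genes (TTTGAA, in 15.2%) and no p53 half-site.

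HAND2 itself moved the other way. Its level ranged from 940 to 1131 CPM in vehicle samples (median 1038 CPM) and from 817 to 961 CPM in nutlin samples (median 877 CPM). The groups overlapped slightly. HAND2 fell by 0.24 on the log2 scale (SE 0.038, edgeR adjusted p = 2.6e-06). The log2 ratio of HAND2-AS1 to HAND2 counts within a sample was -0.33 ± 0.17 (SD, n = 10) in vehicle and 0.28 ± 0.086 (n = 10) in nutlin samples. The difference was 0.61, with the groups fully apart, and the adjusted p was 4.0e-05 (two-sided permutation test, adjusted over the 4 ratios). Per length, HAND2-AS1 was above HAND2 in 1 of 10 vehicle samples and in 10 of 10 nutlin samples, at a mean TPM ratio of 0.883 ± 0.087 and 1.55 ± 0.097.

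**Figure D2:**
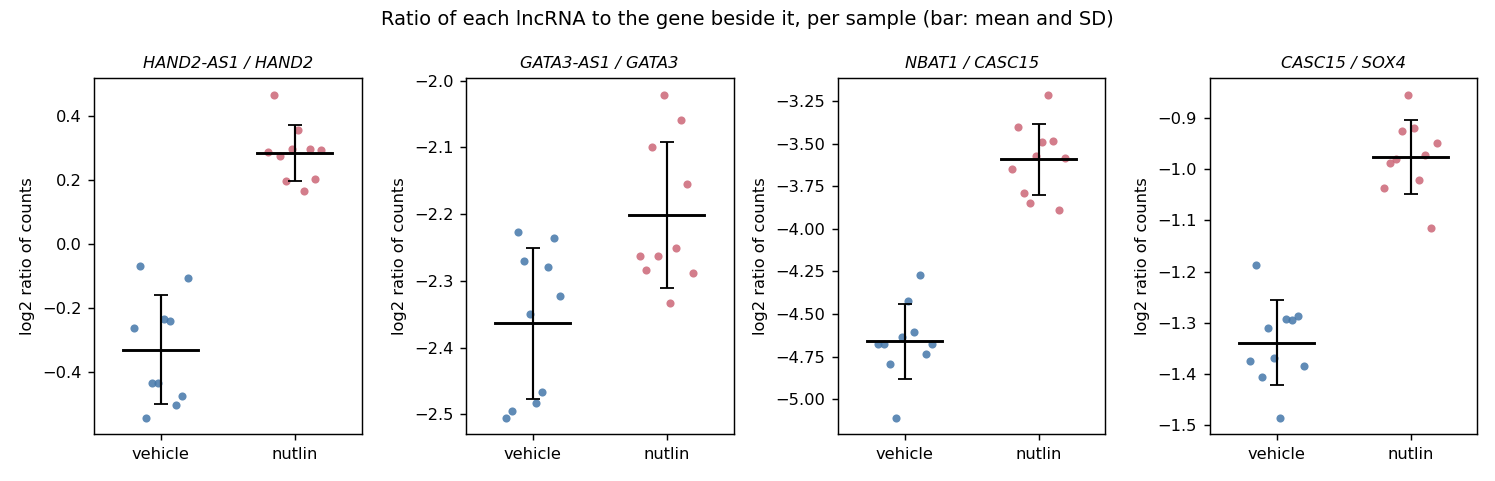
Log2 ratio of counts within a sample for HAND2-AS1 to HAND2, GATA3-AS1 to GATA3, NBAT1 to CASC15 and CASC15 to SOX4, in vehicle (n = 10) and nutlin (n = 10) samples. Points are samples, wide bars are means and error bars the SD, and each panel has its own log axis. The groups are apart in all panels but that of GATA3-AS1 to GATA3, where 4 of 10 nutlin samples lie above all vehicle samples.

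The estimated counts of the HAND2-AS1 transcripts changed by unequal amounts. Such estimates divide reads among forms that overlap. The uncertainty of that division did not enter the tests of transcripts and of usage, here or for the other lncRNAs. Of its 37 measured transcripts 32 could be tested, and 15 were called as higher and 2 as lower, against 12.7% and 10.7% of all 119877 transcripts tested. A test of transcript usage (edgeR diffSpliceDGE, which asks whether the transcripts of a gene change alike) gave an adjusted p of 5.0e-13, in a comparison in which 28.2% of 16484 genes were called. The leading transcript, HAND2-AS1-202, held 47.6% of the counts in vehicle and 42.7% in nutlin samples, with an LFC of 0.24 ± 0.046 (edgeR adjusted p = 0.00036). HAND2-AS1-237, a form of 4 exons and 2420 bases, ranged from 34.8 to 69.0 CPM in vehicle and from 93.4 to 144 CPM in nutlin samples. It had an LFC of 1.0 ± 0.099 (adjusted p = 3.8e-08 in edgeR), and its groups did not overlap, as for 4.15% of all transcripts tested with nutlin samples the higher group. These forms differ in composition, with 43.8% G and C in HAND2-AS1-202 and 53.4% in HAND2-AS1-237. HAND2-AS1-212 ranged from 15.9 to 167 CPM within the vehicle group alone and was not called, with an LFC of 0.09 ± 0.28.

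The transcripts called as lower were HAND2-AS1-225, with an LFC of -0.29 ± 0.052 (edgeR adjusted p = 0.00014), and HAND2-AS1-227, with an LFC of -0.59 ± 0.16 (edgeR adjusted p = 0.0095). HAND2-AS1-225 shares 529 exon bases with HAND2 on the opposite strand. HAND2-AS1-231 and HAND2-AS1-236 share 240 and 198 bases. The libraries were stranded, but whether strand was used in counting is not given in the sources used here, so reads over these bases could belong to either gene. Without these 3 transcripts the LFC of HAND2-AS1 was 0.43.

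**Figure D3:**
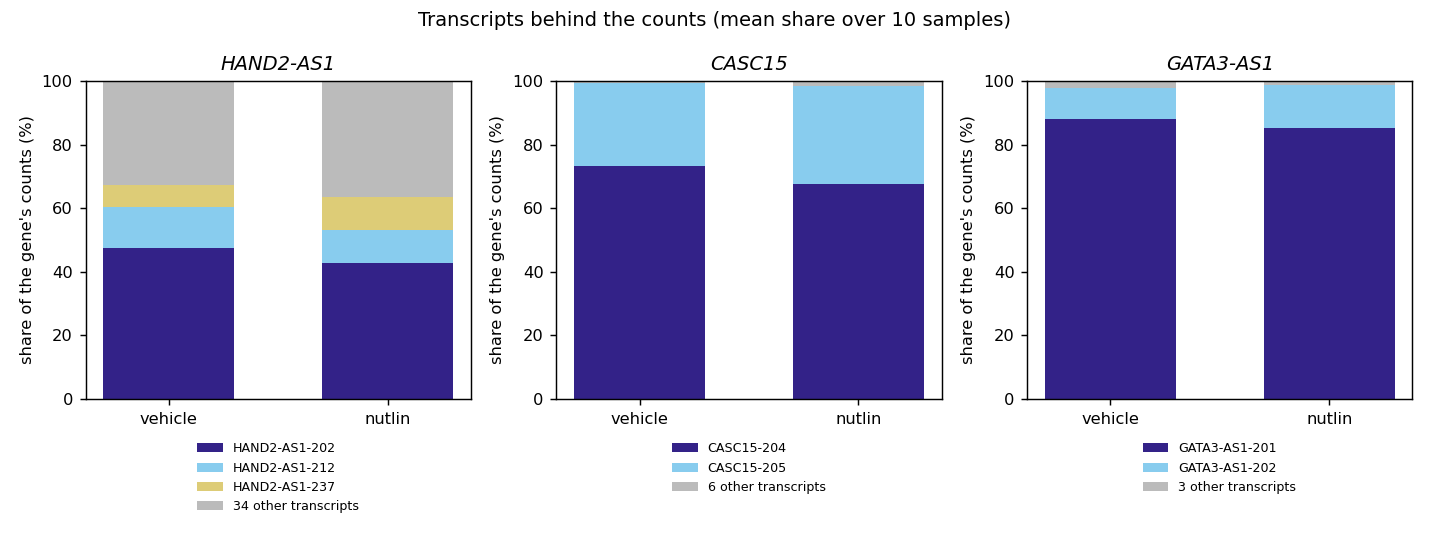
Mean share of a gene's counts held by each transcript with at least 10% in either condition, for HAND2-AS1, CASC15 and GATA3-AS1 in vehicle (n = 10) and nutlin (n = 10) samples, with the other transcripts pooled in grey. In each gene the leading transcript holds a smaller share in nutlin samples, from 73.3% to 67.6% for CASC15-204 and from 88.1% to 85.1% for GATA3-AS1-201.

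NBAT1 (ENSG00000260455, GRCh38 chr6:22133205-22147193, minus strand) had the largest LFC of the 4 and the lowest level. It ranged from 1.53 to 2.49 CPM in vehicle samples, with a median of 2.24 CPM. In nutlin samples it ranged from 7.32 to 12.8 CPM, with a median of 10.5 CPM. The groups lay far apart, at 23 to 43 counts per vehicle sample and 107 to 199 per nutlin sample. The fold change was 4.73, with a 95% confidence interval of 4.08 to 5.48. A single transcript, NBAT1-201, was measured, and in the index the authors used it is 1940 bases long, against 3692 in the present annotation. It shares 227 exon bases with CASC15 on the opposite strand in that annotation, so reads there could belong to either gene. How much this adds to the NBAT1 counts was not tested.

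CASC15 (ENSG00000272168, GRCh38 chr6:21664184-22654455, plus strand) encloses NBAT1. It ranged from 48.5 to 64.4 CPM in vehicle samples, with a median of 54.8 CPM. In nutlin samples it ranged from 106 to 138 CPM, with a median of 122 CPM. Every nutlin sample exceeded the highest vehicle sample by a wide margin, and the fold change was 2.23 (95% confidence interval 2.09 to 2.38). NBAT1 rose more than CASC15. The log2 ratio of NBAT1 to CASC15 counts was -4.66 ± 0.22 (SD, n = 10) in vehicle and -3.59 ± 0.21 (n = 10) in nutlin samples, a difference of 1.07 (permutation test, adjusted p = 4.0e-05). Per length NBAT1 stood at 0.0906 of the CASC15 level in vehicle and at 0.187 in nutlin samples.

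The CASC15 counts fell almost wholly to forms with an internal start beside NBAT1. Only 8 of the 111 annotated CASC15 transcripts were measured, so RNA of the other forms could not be counted as such. CASC15-204, a single-exon form, held 73.3% of the counts in vehicle and 67.6% in nutlin samples. CASC15-205, of 4 exons, held 26.0% and 30.9%. Together with 2 rarer forms that start within 1000 bases of the NBAT1 start they held 99.4% ± 0.21 (SD) and 99.2% ± 0.21 of CASC15 counts. The start of CASC15-204 lies 924 bases from that of NBAT1, and the pair is transcribed towards each other. CASC15-206, CASC15-207 and CASC15-208, which begin at the distal start, had means between 0.0891 and 0.163 CPM in either group and were not called.

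CASC15-205 rose from 12.1 to 16.5 CPM in vehicle to between 30.3 and 44.2 CPM in nutlin samples, an LFC of 1.44 ± 0.070 (edgeR adjusted p = 2.2e-13). CASC15-204 ranged from 33.8 to 47.0 CPM and from 72.6 to 93.4 CPM, an LFC of 1.06 ± 0.063 (edgeR adjusted p = 7.0e-12). Neither form's groups overlapped, as for 4.15% of all transcripts tested with nutlin samples the higher group. Of 7 CASC15 transcripts tested 4 were called as higher and 0 as lower, against 12.7% and 10.7% of all transcripts tested. Usage differed between conditions (edgeR diffSpliceDGE adjusted p = 1.7e-07), as called for 28.2% of 16484 genes. CASC15-201 and CASC15-203, the other called forms, had means of 0.0392 and 0.0557 CPM in vehicle and 0.604 and 0.824 CPM in nutlin samples. CASC15-204, CASC15-205 and NBAT1 share 227 exon bases on opposite strands in the present annotation. Without the CASC15 transcripts that overlap NBAT1 the LFC of CASC15 was 1.55, on forms below 1 CPM each, and no NBAT1 transcript is left.

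The windows at the starts that held most counts are shown because the RNAs of this locus rose most. The NBAT1 window in RefSeq is chr6:22147144-22147443 on the minus strand, and its capitals mark E-boxes (CANNTG). The CASC15 window, chr6:22146019-22146318 on the plus strand, was read from the GRCh38 genome around the annotated start of CASC15-204, which was chosen for its share of counts. Its capitals mark p53 half-sites, the 10-base elements that p53 binds in pairs. The CASC15 window of RefSeq lies at the distal start and held none of the motifs searched.
NBAT1: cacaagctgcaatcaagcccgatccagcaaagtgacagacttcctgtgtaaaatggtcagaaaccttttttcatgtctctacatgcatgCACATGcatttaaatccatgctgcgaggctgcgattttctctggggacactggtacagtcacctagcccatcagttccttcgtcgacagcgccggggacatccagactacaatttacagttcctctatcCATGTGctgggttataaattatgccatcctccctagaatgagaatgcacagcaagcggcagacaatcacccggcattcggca
CASC15: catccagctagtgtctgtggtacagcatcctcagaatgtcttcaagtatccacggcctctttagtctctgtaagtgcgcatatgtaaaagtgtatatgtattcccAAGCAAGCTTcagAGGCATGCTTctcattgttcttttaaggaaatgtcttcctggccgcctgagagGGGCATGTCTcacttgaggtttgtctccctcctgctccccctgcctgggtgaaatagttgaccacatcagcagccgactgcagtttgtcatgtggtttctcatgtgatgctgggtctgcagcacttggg
The NBAT1 window holds 2 E-boxes, which begin 161 and 32 bases before the start, and no GATA motif or p53 half-site. The CASC15 window holds 3 p53 half-sites, which begin 145, 132 and 79 bases before the start, at chr6:22146124-22146133, chr6:22146137-22146146 and chr6:22146190-22146199. The first pair has 3 bases between its members. All 3 lie in intron 2 of NBAT1. Their edges nearest to the NBAT1 start lie between 994 and 1060 bases downstream of it. At least 1 half-site occurs in 6.63% of the 35116 RefSeq windows, at least 3 in 5 windows, and a pair with 0 to 13 bases between in 10 windows, or 0.0285%. The spacing was looked at after the matches were seen. The window also holds 5 E-boxes and no GATA motif. A match of letters is no evidence that p53 binds there, and the length of CASC15-204 differs between the authors' index (4461 bases) and the present annotation (5400 bases), so its start in the index may differ too.

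SOX4, whose gene body ends 65565 bases below the annotated lower end of CASC15, was also higher. The start of CASC15-204, which held most CASC15 counts, lies farther off, at chr6:22146269 against chr6:21598619 for the end of SOX4. SOX4 ranged from 119 to 153 CPM in vehicle and from 201 to 276 CPM in nutlin samples, without overlap. The LFC was 0.80 ± 0.053 (edgeR adjusted p = 4.7e-14). CASC15 rose more than SOX4, with a log2 ratio of -1.34 ± 0.083 (SD) in vehicle and -0.98 ± 0.071 in nutlin samples, a difference of 0.36 (permutation test, adjusted p = 4.0e-05).

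CASC15 and SOX4 also moved together among samples of the same condition. Over the 10 vehicle samples, Pearson's r of log2 CPM was 0.77 (permutation test, adjusted p = 0.033) and Spearman's rho 0.77 (permutation test, adjusted p = 0.033). Over the 10 nutlin samples r was 0.87 (permutation test, adjusted p = 0.0066) and rho 0.85 (permutation test, adjusted p = 0.022). Without the 2 samples farthest from the median of CASC15, r was 0.77 in vehicle and 0.76 in nutlin samples. This was the only one of 4 pairs whose r passed the threshold, among 8 relations tested. A high r with CASC15 was not particular to SOX4, since SLC38A2 had r = 0.910 in vehicle and 0.911 in nutlin samples. CASC15 and SOX4 also had r = 0.725 and 0.655 with the leading axis of variation among samples of the same condition. The part of that axis in their correlation was not tested. HAND2-AS1 and HAND2 had r = -0.59 (permutation test, adjusted p = 0.12) and rho = -0.79 (permutation test, adjusted p = 0.033) in vehicle samples, but in TPM that r was 0.51 in place of a negative value. In nutlin samples their r was 0.24 (permutation test, adjusted p = 0.59).

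**Figure D4:**
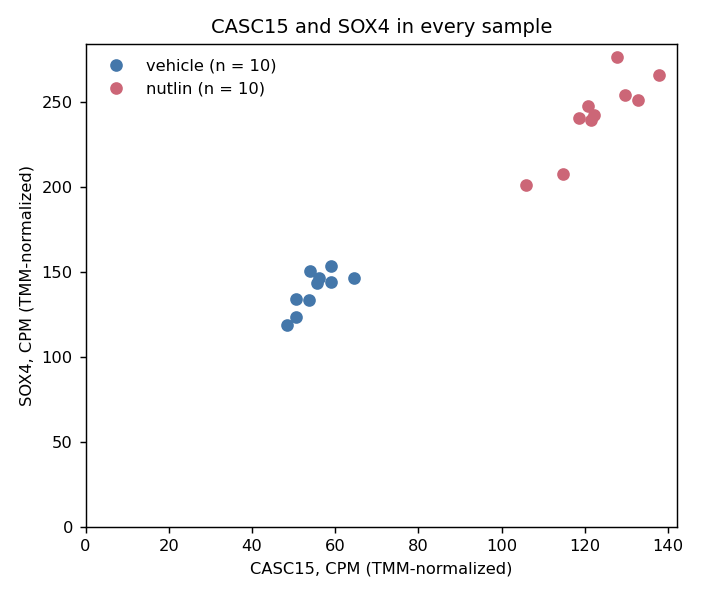
Level of SOX4 against that of CASC15 in CPM (TMM-normalized) in each vehicle (n = 10) and nutlin (n = 10) sample. Both genes are higher in nutlin samples, and within each group samples with more CASC15 had more SOX4 (r = 0.77 in vehicle and 0.87 in nutlin samples on the log2 scale).

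GATA3-AS1 (ENSG00000197308, GRCh38 chr10:8050450-8053484, minus strand) is the antisense partner of GATA3, a zinc-finger factor of sympathetic neurons and T cells. It ranged from 40.6 to 52.9 CPM in vehicle samples, with a median of 47.5 CPM. In nutlin samples it ranged from 63.1 to 76.8 CPM, with a median of 68.9 CPM. The groups did not overlap, and the fold change was 1.47 (95% confidence interval 1.37 to 1.57). GATA3 changed the same way. Its level ranged from 229 to 255 CPM in vehicle and from 292 to 337 CPM in nutlin samples, with an LFC of 0.39 ± 0.033 (edgeR adjusted p = 1.3e-11).

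The ratio of GATA3-AS1 to GATA3 changed least of the 4 ratios. Its log2 value was -2.36 ± 0.11 (SD, n = 10) in vehicle and -2.20 ± 0.11 (n = 10) in nutlin samples, a difference of 0.16 (permutation test, adjusted p = 0.0048), and the groups overlapped. Within conditions the r of the pair was 0.64 in vehicle (permutation test, adjusted p = 0.12) and 0.013 in nutlin samples (permutation test, adjusted p = 0.97), but in TPM the r in vehicle samples was -0.16. GATA3-AS1-201 held 88.1% of the counts in vehicle and 85.1% in nutlin samples, and had an LFC of 0.52 ± 0.057 (edgeR adjusted p = 1.7e-07). GATA3-AS1-202, a shorter form that starts downstream, rose from a mean of 4.59 to 9.47 CPM, with an LFC of 1.04 ± 0.097 (edgeR adjusted p = 1.3e-08). These were the 2 forms called among 4 tested, while 12.7% of all transcripts tested were called as higher. Usage of the forms differed between conditions with an adjusted p of 0.028 by edgeR diffSpliceDGE, as called for 28.2% of 16484 genes. In the fit with a replicate block the adjusted p of this usage test was 0.49. All 5 GATA3-AS1 transcripts share between 99 and 361 exon bases with a lncRNA on the opposite strand, ENSG00000232638, so that reads there could belong to either.

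The start of GATA3-AS1 lies 1204 bases from that of the leading GATA3 transcript, and the pair is transcribed apart. Only 0.969% ± 0.26 (SD) of GATA3 counts in vehicle and 1.13% ± 0.15 in nutlin samples came from a GATA3 form that starts within 300 bases of the GATA3-AS1 start. The window of GATA3-AS1 in RefSeq, chr10:8053435-8053734 on the minus strand, is shown for contrast with that of HAND2-AS1, since it shares 256 bases with a GATA3 window that is hardly used in these cells. It has no capitals because it held none of the motifs searched, and 76.3% of its bases are G or C.
GATA3-AS1: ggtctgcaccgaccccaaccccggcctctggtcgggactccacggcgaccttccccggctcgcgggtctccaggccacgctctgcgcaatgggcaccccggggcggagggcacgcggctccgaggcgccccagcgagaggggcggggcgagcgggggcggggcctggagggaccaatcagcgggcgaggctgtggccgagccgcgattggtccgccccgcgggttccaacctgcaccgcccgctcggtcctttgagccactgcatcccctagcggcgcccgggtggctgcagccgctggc

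The adrenergic transcription factors around these lncRNAs mostly fell. Of the 12 factors listed 9 were called as lower and 3 as higher, against 26.5% and 32.3% of all genes tested. Their median LFC was -0.24, against 0.19 for all genes tested and -0.08 for those that reached a mean of 1 CPM. TFAP2B, a factor of noradrenergic differentiation, fell by 1.5 on the log2 scale (SE 0.044), from a mean of 307 to 108 CPM. INSM1, a zinc-finger factor of neuroendocrine cells, fell by 0.64 on the log2 scale (SE 0.081), from 18.1 to 11.6 CPM. The 3 factors called as higher were TBX2 (LFC 0.66 ± 0.057), KLF7 (LFC 0.47 ± 0.042) and GATA3. The median LFC of the 4 lncRNAs was 0.86. All 4 were called as higher, so they share the sign of these 3 factors and not of the other 9. This follows from the calls, and a relation of the lncRNAs to the factors was not tested.

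**Figure D5:**
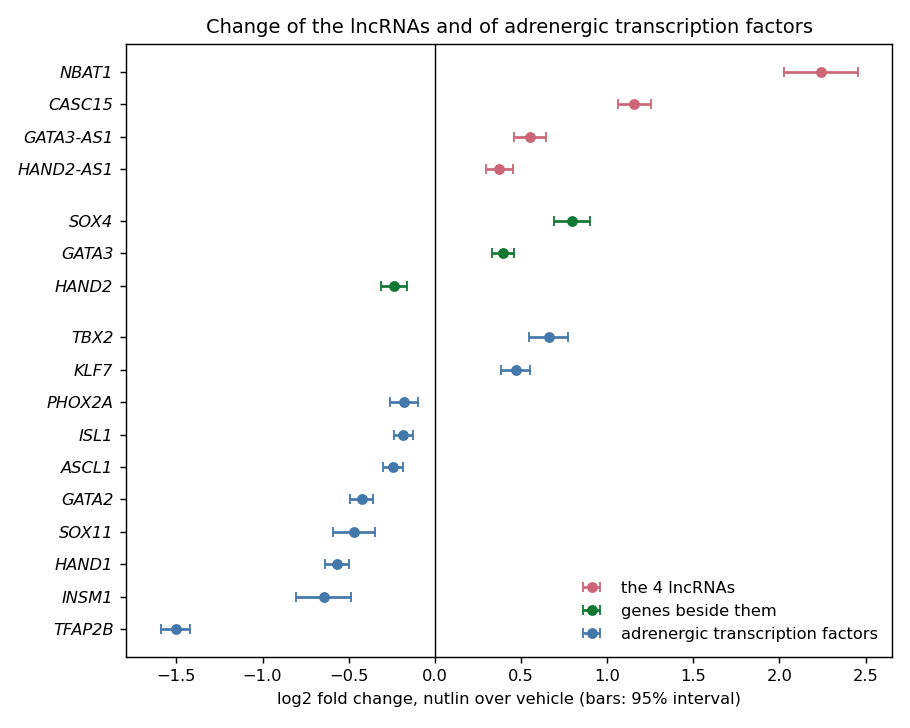
LFC of nutlin over vehicle samples with bars of the 95% interval, for the 4 lncRNAs, the genes beside them (SOX4, GATA3 and HAND2) and the other adrenergic transcription factors. The 4 lncRNAs lie right of 0, from 0.37 for HAND2-AS1 to 2.24 for NBAT1, while TFAP2B lies farthest left at -1.5.

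Among 9 genes linked to NBAT1 or CASC15 in earlier work, 5 were called as higher, 3 as lower and 1, OSMR, was not called, with a median LFC of 0.26. Of all genes tested 32.3% were called as higher and 26.5% as lower. SOX9, a factor of neural crest and glial cells, rose from a mean of 1.10 to 17.8 CPM (LFC 4.0 ± 0.14). REST, the repressor of neuronal genes, had an LFC of 1.09 ± 0.22, at means of 0.718 and 1.54 CPM. EZH2, the Polycomb histone methyltransferase, fell by 1.61 on the log2 scale (SE 0.046), and XPO1, the nuclear export receptor, fell by 0.83 on that scale (SE 0.043). Among 9 catecholamine genes 6 were called as higher, 1 as lower and 2 (DBH and SLC6A2) were not called, against 32.3% higher and 26.5% lower among all genes tested. Their median LFC was 0.47. The count of 6 was 5 over the 16 samples that share a replicate number, with or without the block. SLC18A1, a vesicular monoamine transporter, rose from a mean of 2.05 to 8.72 CPM. SLC18A2, its neuronal counterpart, was at 0 in every vehicle sample but replicate 12, which had 15 counts, and had 19 to 47 counts in nutlin samples. The enzyme DDC and the granule protein CHGB had the smallest changes among the called genes, with LFCs of 0.28 ± 0.046 and 0.47 ± 0.072. TH, the rate-limiting enzyme of catecholamine synthesis, is given for its role, and rose from a mean of 511 to 786 CPM (LFC 0.62 ± 0.071). The gene called as lower was PNMT, the enzyme that makes adrenaline, at means of only 4.2 and 1.8 counts per sample. PNMT is not tested under the stricter count filter, which leaves 0 of these genes called as lower.

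Among 14 other lncRNAs studied in neuroblastoma 10 were called as higher, 2 as lower and 2 (MIAT and DLX6-AS1) were not called, against 53.6% called as higher among the lncRNAs with a mean of 1 CPM or more. Their median LFC was 0.47. The count of 10 was 9 with DESeq2 and 8 over the 16 samples, and one of the 10, FOXD3-AS1, had means of only 0.5 and 2.1 counts. PVT1, the lncRNA beside MYC, had an LFC of 2.46 ± 0.048, from a mean of 15.7 to 86.6 CPM. MEG3, an imprinted lncRNA, had an LFC of 2.32 ± 0.055, from 436 to 2180 CPM. The NBAT1 value of 2.24 lies just below these. HAGLR, beside the HOXD genes, fell by 0.78 on the log2 scale (SE 0.079), and MYCNOS, the antisense RNA of MYCN, fell by 0.34 on that scale (SE 0.063). Of the 10 protein-coding genes nearest to the 4 lncRNAs or overlapping them, 6 were called as higher and 4 as lower, against 32.3% and 26.5% of all genes tested. PRL and HDGFL1, which lie inside CASC15, were among them at means of 1.7 and 0.6 counts in vehicle and 0.3 and 3.5 counts in nutlin samples. NRSN1, the gene above CASC15, fell by 0.76 on the log2 scale (SE 0.050) and FBXO8, the gene above HAND2-AS1, by 0.31 (SE 0.051). SCRG1, the gene below HAND2-AS1, had an LFC of 0.82 ± 0.15. TAF3 and CELF2, on either side of GATA3-AS1, had LFCs of 0.46 ± 0.041 and 0.64 ± 0.056.

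The genes whose levels varied most like each lncRNA were found from log2 CPM with the mean of each condition subtracted, over 20 samples and 15167 genes that reached a mean of 1 CPM. For HAND2-AS1 they were FRS2 (r = 0.957), CREBRF (r = 0.956) and OSBPL8 (r = 0.953). For CASC15 they were SLC38A2 (r = 0.909), TMEM131 (r = 0.882) and PPP1R15B (r = 0.880). For NBAT1 they were MAPK6 (r = 0.850), SF3B1 (r = 0.812) and XPOT (r = 0.810), and for GATA3-AS1 they included SCAND1 (r = 0.928) and MRPL28 (r = 0.916). The 20 points share libraries and scaling, so these values describe the samples and were given no p. The lncRNAs did not vary alike within conditions. The same measure was 0.81 between HAND2-AS1 and CASC15, but -0.62 between HAND2-AS1 and GATA3-AS1 and -0.52 between CASC15 and GATA3-AS1. The vehicle samples with the lowest HAND2-AS1 levels, replicates 10, 11 and 5 at 748, 748 and 777 CPM, were those with the highest GATA3-AS1 levels, at 52.5, 52.3 and 52.9 CPM.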

How the data were processed

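Poly(A) RNA of 20 NGP samples was sequenced after TruSeq stranded library preparation. Per the labels and the study's methods, the authors quantified reads with kallisto 0.42.4 on GRCh38 transcripts of Ensembl release 85. The deposited files hold an estimated count per transcript with no normalization, the TPM that the authors' kallisto runs made from it, and effective lengths in bases (used in 1 alternative). Whether strand was used in counting is not given in the sources used here.

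Groups came from the treatment labels of the samples and replicate numbers from the sample titles. Transcripts were matched to GENCODE release 44 by identifier without version (191106 of 198968). Estimated counts were summed per gene and rounded. Protein-coding and lncRNA genes whose total reached 1 count in both conditions were tested with the quasi-likelihood F-test of edgeR 4.0.16 (TMM, Benjamini-Hochberg at 5% FDR) over 27697 genes, transcripts likewise, and usage with diffSpliceDGE. Intervals are 95% confidence intervals of the fold change by the normal approximation, and not ranges of the samples. The SE of an LFC was taken as its absolute value divided by the square root of the F statistic. Ratios and correlations used log2 CPM with a prior count of 0.5 and two-sided permutation tests with 100000 resamples, adjusted over 4 ratios or 8 relations. On simulated counts, 98 of 100 genes changed by 1.0 on the log2 scale were recovered over 27302 genes, and 71 of 100 changed by 0.5. For transcripts these numbers were 89 and 46 of 100. Only 200 genes were changed, none with very low counts, and every gene had the same dispersion. The simulation therefore does not cover genes with few counts or a comparison with as many changes as this one. Promoter windows are from RefSeq (GRCh38).

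The lncRNAs, the gene lists and the motifs were chosen with earlier results of these data known. The text names the lncRNAs, their neighbours, MDM2 and CDKN1A, and of each list up to 4 called genes with the largest and smallest LFC among those with a mean of at least 1 CPM. It also names transcripts with at least 10% of a gene's counts, and the 3 genes most like each lncRNA. PNMT, TH, FOXD3-AS1 and the other transcripts were named after their values were seen. Alternatives used DESeq2 1.42.0 and limma 3.58.1. A listed factor and a gene most like GATA3-AS1 are not reported here.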

Additional observations from a re-analysis of the deposited data

Results flagged for a closer look

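One sample of HAND2-AS1-237 stood apart from its group. Nutlin replicate 8 had 143.8 CPM of this transcript, the nearest other nutlin sample had 119 CPM and the median of the group was 110 CPM. The gap to the nearest sample was 0.493 of the group's range, above Dixon's 95% limit for 10 samples. Of 38 groups of values tested in this way it was the 1 that passed, and chance gives about 1 in 20.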

How the results depend on the processing

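All 4 lncRNAs were called as higher in all 8 alternatives of the gene fit: DESeq2, DESeq2 size factors in edgeR, limma voom, a stricter count filter (filterByExpr), an effective length offset, the unmatched transcripts kept in the library sizes, the replicate block, and the same 16 samples without the block. Leaving out 1 sample at a time kept all 4 calls too. Over the alternatives the LFC lay between 0.37 and 0.53 for HAND2-AS1, highest with the effective length offset. It lay between 2.21 and 2.32 for NBAT1 and between 0.56 and 0.65 for GATA3-AS1. For CASC15 it lay between 1.16 and 1.55. The value of 1.55 came from a further fit without transcripts that overlap another gene, on forms below 1 CPM each. NBAT1 and GATA3-AS1 gave no value without transcripts that overlap another gene, since none was left. The catecholamine genes called as lower numbered 0 with filterByExpr and 2 over the 16 samples without the block, an alternative added after seeing the data. In deposited TPM, r within vehicle samples turned from -0.59 to 0.51 for HAND2-AS1 with HAND2 and from 0.64 to -0.16 for GATA3-AS1 with GATA3, and the cause was not tested.

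The 8 pairs of samples that share a replicate number gave no sign of pairing, with correlations of the pairs' deviations between -0.027 and 0.074. Whether such samples were handled together is not given in the sources used here. A replicate block over these 16 samples gave LFCs of 0.38 for HAND2-AS1, 2.21 for NBAT1, 1.16 for CASC15 and 0.59 for GATA3-AS1. With it the usage of GATA3-AS1 transcripts was no longer called (edgeR adjusted p = 0.49), and the calls as higher went from 10 to 8 among the other lncRNAs, from 6 to 5 among the catecholamine genes and from 22 to 19 among the transcripts of the 4 lncRNAs. Without the block the same 16 samples gave 8 and 5 for the first pair of counts. NBAT1 is limited by depth, with 23 to 43 counts per vehicle sample.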

Other observations

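Within conditions the samples differed along a leading axis of variation over 15171 genes, which held 11.6% of the deviation from condition means. The level of HAND2-AS1 had r = 0.885 with this axis, CASC15 r = 0.725, NBAT1 r = 0.431 and GATA3-AS1 r = -0.792. SOX4 had r = 0.655, HAND2 r = -0.353 and GATA3 r = -0.224. The axis itself had r = 0.207 with the log2 total count of a sample. The part of this axis in the correlations of CASC15 with SOX4 was not tested.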
